A study of Mus musculus with 7 samples.

Results

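Dendritic cells (DC) were compared with Mb macrophages within each of 3 young mice. The cells were chosen by the cell type that the authors deposited for each cell, and the comparison held 205 DC and 124 Mb cells, 329 of the 6372 cells of the young mice and of the 13684 cells in all. Young A held 75 DC and 90 Mb cells, Young B 24 and 16, and Young C 106 and 18. Mb is 1 of 2 macrophage groups that the authors separated, the other being Ma.

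The series is a single-cell RNA-seq study of the ageing mammary gland, with 1 library for each of 3 young females, 3 to 4 months old, and 4 aged females, 13 to 14 months old. All 7 mice were nulliparous, were taken at diestrus, and were of mixed FVB, 129 and C57BL/6J background, with no treatment. Cells were freed enzymatically from the #4 glands after the lymph nodes had been removed, without a sort for immune cells. The main comparison used the young mice alone, because the aged mice held 21 DC and 22 Mb cells between them.

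Dendritic cells take up antigen in a tissue, carry it to lymphocytes and present it on MHC class II molecules together with costimulatory proteins. Conventional dendritic cells fall into cDC1, which cross-present to CD8 T cells, and cDC2, which present mainly to CD4 T cells, and in many tissues cells derived from monocytes share parts of both programmes. Macrophages engulf and digest dying cells and debris in lysosomes, make complement component C1q and apolipoprotein E, and release chemokines and cytokines, and in the mammary gland they lie along the ducts and in the stroma.

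The libraries held 6652599 to 16547583 UMIs (unique molecular identifiers, 1 per captured mRNA molecule) in the young mice, with 4758.5 to 5253 UMIs in the median cell. The DC of Young A, B and C summed to 372230, 110395 and 549243 UMIs, and the Mb cells to 519375, 76745 and 92691, so Young B carried the fewest UMIs for both types. Scrublet called 73 of the 13684 cells doublets, 1 of them among the 329 cells, and 5 of the 329 had a barcode that another library also held. All intervals and limits given for counts cover counting error only.

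Depth and complexity differed by less than the spread over mice. The median DC held 4539.5 ± 206 UMIs and 1307 ± 74.4 genes (SD, n = 3 mice), and the median Mb cell 4865 ± 431 UMIs and 1355 ± 134 genes (exact paired permutation test, 2-sided, p = 0.5 for each). Mitochondrial UMIs made up 2.24% ± 0.219 of the median DC and 3.06% ± 0.439 of the median Mb cell, lower in DC in 3 of 3 mice (exact paired permutation test, p = 0.25, the smallest p that 3 pairs allow). The phase that the authors assigned was G2M in 33.3%, 29.2% and 36.8% of the DC of Young A, B and C and in 26.7%, 18.8% and 5.56% of the Mb cells, and G1 in 37.3%, 41.7% and 45.3% of DC and 55.6%, 56.2% and 66.7% of Mb cells.

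Gene levels are given as CPM, UMIs of the gene per 1000000 UMIs of a mouse's sum for that cell type, after TMM scaling of the sums, always in the order Young A, Young B, Young C. Because the authors named the types from clusters of these same cells, the genes that defined the clusters differ by construction. An adjusted p below weighs the size of a difference against its spread over the 3 mice. The test draws that spread partly from the other genes, so an adjusted p is no measure of how steady a given gene was. Of 2428 genes with enough UMIs to test, 157 were higher in DC (6.47%) and 280 lower in DC (11.5%), together 18% of those tested, at an adjusted p under 0.05 and at least 2-fold (edgeR quasi-likelihood test with the mouse as a block, Benjamini-Hochberg adjustment). The fold was at least 2 in each of the 3 mice for 119 of the genes higher in DC and 209 of those lower in DC. The DC and Mb values did not overlap for 150 of the higher and 259 of the lower genes, against 35.6% of all genes tested. The median log2 fold change over all genes tested was 0.04. This median and the shares of 6.47% and 11.5% are the background for each count of list members below. Without Young A, the mouse with most of the Mb cells, 1209 genes could be tested and 91 were higher and 204 lower in DC.

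**Figure D1:**
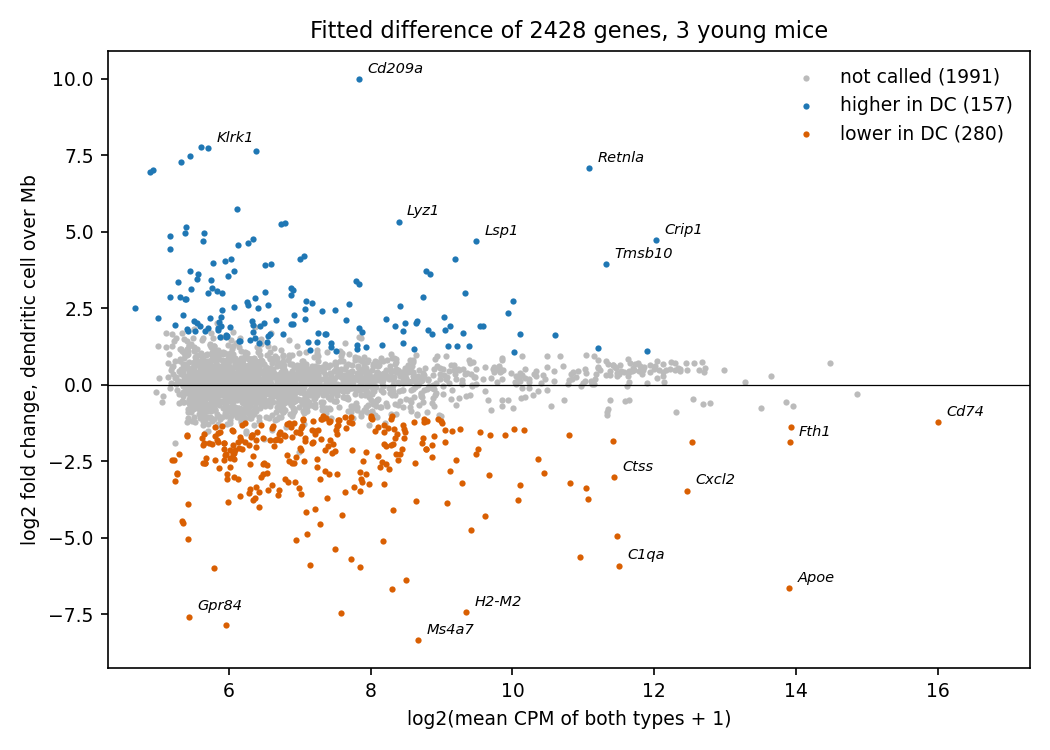
Log2 fold change of DC over Mb cells in the young mice (vertical axis) against the mean level of each gene, as log2 of CPM plus 1 (horizontal axis), for the 2428 genes tested. Each point is a gene: 157 coloured points above 0 were called higher in DC, 280 below 0 were called lower in DC, and 1991 were not called.

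The marker genes that the study's text names for the 2 types were read as a check of the labels, with no weight as findings. Cd209a, the antigen-binding lectin DC-SIGN, stood at 502, 639.5 and 224 CPM in DC and had 0 UMIs in Mb cells. Flt3, the receptor for the growth factor on which dendritic cells depend, had 15, 6 and 13 UMIs in DC and 0 in Mb cells, too few to test. Napsa, an aspartic protease, was higher in DC, at 414, 315 and 329 CPM against 223, 79.7 and 0 CPM (log2 fold change 1.87 ± 0.56 (SE), adjusted p = 0.0358, and 3.14 without Young A), and fell short of the threshold without Young B (adjusted p = 0.065) or Young C (log2 fold change 1.23, adjusted p = 0.0541). Its call was also lost without the mouse as a block and with the larger sum thinned to the smaller. Traf1, a signalling adaptor, did not pass, at 214, 335 and 245 CPM against 145, 144 and 74.1 CPM (log2 fold change 1.05 ± 0.34, adjusted p = 0.051).

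On the Mb side, Csf1r, Fcgr3, Adgre1 and Ms4a7 were all lower in DC. Ms4a7, a membrane protein of tissue macrophages, had 2 UMIs in the DC sums and 361, 941 and 1137 CPM in Mb cells, a ratio of Mb to DC of 240.4 (95% interval 66.0 to 1994). The Mb genes Mmp12 and Mmp13 were lower in DC too, and Spic, a transcription factor of macrophages that recycle iron, stood at 2.74, 0 and 3.83 CPM in DC and 40.4, 367 and 222 CPM in Mb cells, too low to test. The Ma genes Mrc1, Cd163 and Cd209f were at most 49.7 CPM in either type. Lyz2, lysozyme, did not separate the types, at 2288, 3237 and 4326 CPM in DC against 4753, 2567 and 2051 CPM in Mb cells (log2 fold change 0.11 ± 0.32, adjusted p = 0.869), with a negative sign without Young B (log2 fold change -0.0045) or Young C (-0.38) and 0.63 without Young A.

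A list of 14 conventional dendritic genes was less clear than the label. Of these, 6 were tested and 0 passed in either direction (edgeR, median log2 fold change -0.07). Zbtb46, the factor that marks conventional dendritic cells, stood at 11, 59.0 and 17.2 CPM in DC and at 4.25, 0 and 0 CPM in Mb cells, which is 4, 6 and 9 UMIs against 2, 0 and 0. Irf8, required for cDC1, was 384, 246 and 222 CPM in DC and 236, 431 and 148 CPM in Mb cells (log2 fold change 0.22 ± 0.35, adjusted p = 0.741), with overlapping values.

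The DC were mixed in themselves. The gene sets counted in single cells here and for the monocyte and natural killer genes below were chosen after their values were seen. Of the 205 DC, 69 held a UMI of the cDC2 gene Cd209a, 33.7% (95% Wilson interval 27.5 to 40.4), and 35 held one of the cDC1 genes Xcr1 or Clec9a, 17.1% (12.5 to 22.8). These sets shared 0 of 205 cells, which allows a share of up to 1.46%. Among Mb cells 0 and 1 of 124 held them, and among 1799 fibroblasts, which should lack these genes, 2 and 1. All 3 mice held both sets, with 32, 11 and 26 cells with Cd209a and 15, 3 and 17 with Xcr1 or Clec9a.

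Monocyte genes spread across both sets. Ly6c2, a surface antigen of classical monocytes, or Ccr2, the receptor that draws them out of the bone marrow, was found in 88 of 205 DC, 42.9% (36.3 to 49.8), of which 32 also held Cd209a and 11 also held Xcr1 or Clec9a. It was found in 4 of 124 Mb cells, 7 of 121 Ma cells and 31 of 1799 fibroblasts (1.72%). The median depths were 4610 UMIs in DC, 5112 in Mb, 4350 in Ma and 4411 in fibroblasts. The chemokine receptor Ccr7, which guides mature dendritic cells to lymph nodes, was found in both types. It was held by 48 of 205 DC (23.4%, 18.1 to 29.7) and 45 of 124 Mb cells (36.3%, 28.4 to 45.0), against 2 of 1799 fibroblasts. Of the 45 Mb cells, 41 were from the 90 of Young A. In Young A, B and C the Ccr7 shares were 22.7%, 20.8% and 24.5% of DC and 45.6%, 6.25% and 16.7% of Mb cells. The Mb share was thus above the DC share in Young A alone.

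**Figure D2:**
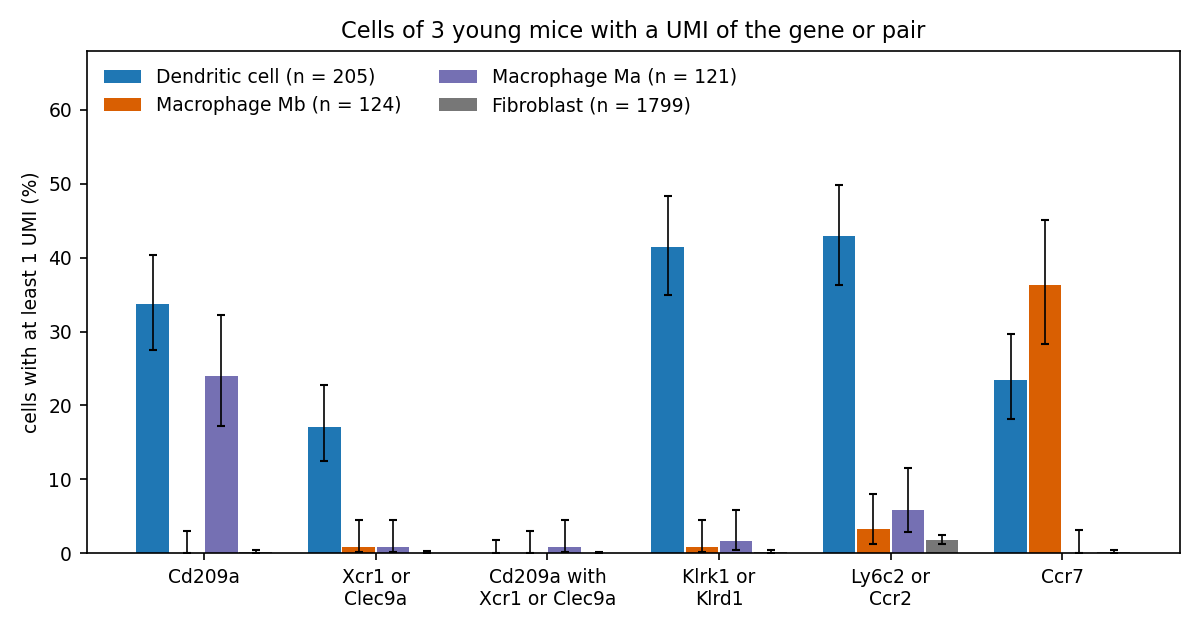
Percent of cells holding 1 UMI or more of a gene, of either gene of a pair, or of Cd209a together with Xcr1 or Clec9a (vertical axis), in DC (205 cells), Mb (124), Ma (121) and fibroblasts (1799) of the young mice, without thinning; error bars are 95% Wilson intervals. Cd209a was found in 33.7% of DC and 0 Mb cells, and Ccr7 in 23.4% of DC and 36.3% of Mb cells. The Ccr7 share was higher in Mb cells than in DC in Young A alone.

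Of 13 monocyte genes in the matrix 7 were tested, and 7 were higher in DC and 0 lower, with a median log2 fold change of 3.97. The filter keeps a gene with enough UMIs in 1 type alone. Ifitm6, Ccr2, Ly6c2, Ear2 and Fn1 had 0, 3, 3, 5 and 6 UMIs in the Mb sums. Such genes could be called only as higher in DC, so the count gives no independent support. Over all 13 genes the list summed to 1119 to 1515 CPM in DC and 111 to 128 CPM in Mb cells. Ccr2 stood at 123, 226 and 124 CPM in DC and at 6.38, 0 and 0 CPM in Mb cells, with 3 UMIs in the Mb sums and a ratio of 29.6 (95% interval 9.91 to 145). Ly6c2 stood at 65.8, 187 and 65.1 CPM against 6.38, 0 and 0 CPM, a ratio of 17.1 (5.65 to 84.9). For both genes each DC value lay above each Mb value. Fn1, fibronectin, was 148, 187 and 425 CPM against 8.51, 15.9 and 12.4 CPM (log2 fold change 4.22 ± 0.47, adjusted p = 0.000133), and Plac8, a small cysteine-rich protein of myeloid cells, was 387, 521 and 318 CPM against 44.7, 15.9 and 37.1 CPM (3.39 ± 0.40, adjusted p = 0.000169). Ear2, an eosinophil-associated ribonuclease, and Ifitm6 were higher too, and reads of both could be shared with close paralogs, as could those of Ly6c2. Ms4a4c passed at a log2 fold change of 1.73 and missed the threshold without Young B (adjusted p = 0.0815), by DESeq2 and without the mouse as a block.

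Natural killer receptors were among the genes that set DC furthest apart. Klrk1, the activating receptor NKG2D, was 98.7, 138 and 70.8 CPM in DC with 0 UMIs in Mb cells, at least 19.4-fold higher in DC. Klrd1, CD94, was 98.7, 256 and 51.7 CPM with 1 UMI in Mb cells, a ratio of 59.4 (10.4 to 2373). Klrd1 and Klrk1 lie side by side on chromosome 6, at 129588092 to 129598775 and 129610323 to 129623903 (GRCm38.p6).

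Their signal came from many DC. Klrk1 or Klrd1 was found in 85 of 205 DC (41.5%, 34.9 to 48.3), with 43 of these also holding Cd209a and 15 holding Xcr1 or Clec9a, against 1 of 124 Mb cells, 2 of 121 Ma cells and 2 of 1799 fibroblasts. Both genes were named for their large folds in these same cells, so the low Mb count follows from that choice. The list of T, B and NK cell genes summed to 126 to 531 CPM over the DC of the mice and to 49.4 to 79.7 CPM over the Mb cells. Klrk1 was the 1 member of that list with enough UMIs to test, and the part of lymphocyte RNA in the Klrk1 result was not tested.

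Several genes of both conventional subsets were higher in DC. Of 9 cDC2 genes tested 6 were higher and 1 lower (median log2 fold change 2.08), and of 8 cDC1 genes 4 were higher and 1 lower (1.75). Cd209a, Cd7 and Clec10a had 0, 0 and 4 UMIs in the Mb sums, and Naaa and Ifi205 of the cDC1 list had 4 and 5. Such genes could be called only as higher in DC, and Cd209a is also a marker of the label. The counts therefore give no independent support. Clec10a, a lectin of cDC2 that binds galactose sugars, was 129, 177 and 61.2 CPM in DC and 6.38, 0 and 12.4 CPM in Mb cells (log2 fold change 4.13 ± 0.64, adjusted p = 0.000944), and Cd7 was 57.6, 315 and 124 CPM with 0 UMIs in Mb cells, at least 26.3-fold higher. Klf4, a factor needed by part of cDC2, was 384, 305 and 279 CPM against 65.9, 31.9 and 136 CPM (2.13 ± 0.41, adjusted p = 0.00344), and missed the threshold without Young A (0.0628). Tnip3, an inhibitor of NF-kB signalling, was 447, 925 and 572 CPM against 82.9, 144 and 247 CPM (2.08 ± 0.33, adjusted p = 0.00115).

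Of the cDC1 genes, Naaa, a lysosomal amidase, was 277, 197 and 151 CPM in DC and 8.51, 0 and 0 CPM in Mb cells (log2 fold change 5.27 ± 0.58, adjusted p = 0.000121, and 8.03 without Young A, a size set by the 0 values). Wdfy4, needed for cross-presentation, was 68.6, 78.7 and 63.1 CPM against 10.6, 15.9 and 37.1 CPM (2.04 ± 0.55, adjusted p = 0.0217, and 0.175 by DESeq2). Not every gene of a dendritic list was higher in DC. Cadm1, an adhesion molecule that marks cDC1 in many tissues, was lower, at 54.9, 78.7 and 63.1 CPM against 179, 335 and 296 CPM (-1.99 ± 0.34, adjusted p = 0.00156). Itgax, CD11c, was 41.1, 9.84 and 44.0 CPM against 172, 79.7 and 74.1 CPM (-1.69 ± 0.47, adjusted p = 0.0254), lower in each mouse, and missed the threshold without Young B (0.0516). The Itgax call was also lost by DESeq2 and with no filter on low counts. Cd207, langerin, stood at 5.49, 0 and 21.0 CPM in DC against 757, 797 and 148 CPM in Mb cells (-5.09 ± 0.71, adjusted p = 0.000481, between -4.14 and -7.35 with 1 mouse left out).

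**Figure D3:**
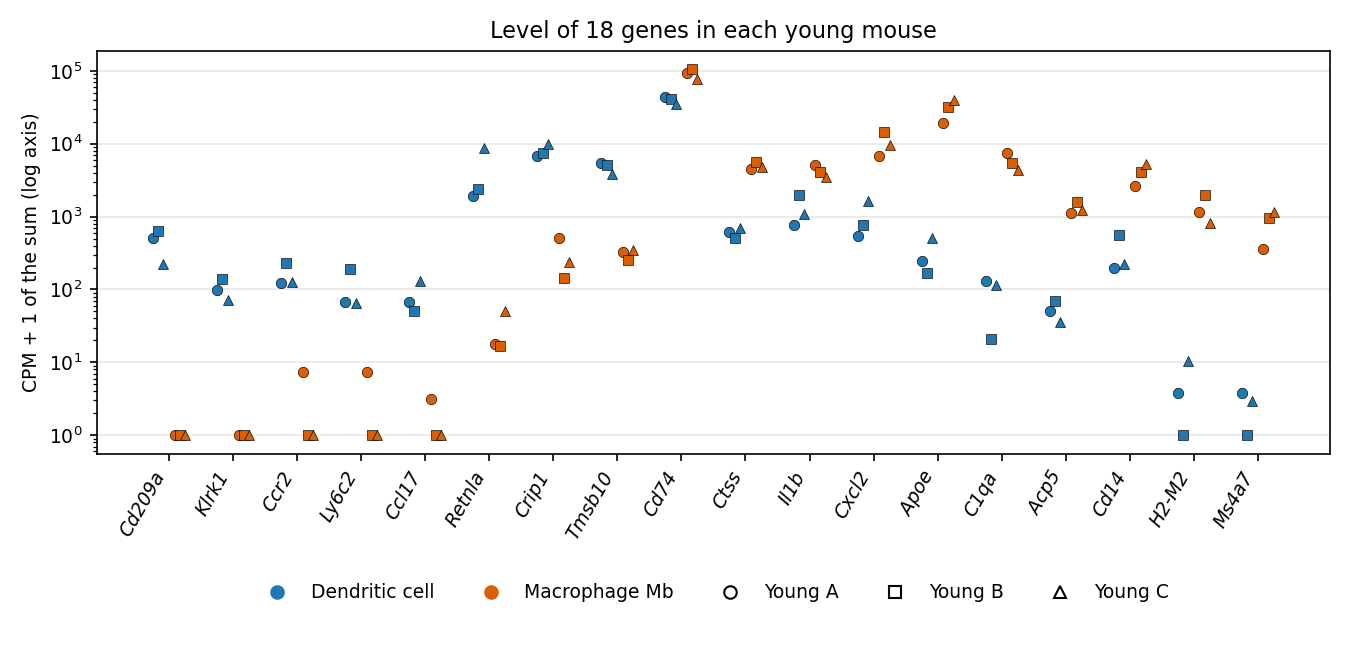
Level of 18 named genes in each young mouse, as CPM plus 1 on a log axis; blue is DC, orange is Mb, and circles, squares and triangles are Young A, B and C. The 3 DC values lie apart from the 3 Mb values for each gene drawn, above them from Cd209a to Tmsb10 and below them from Cd74 to Ms4a7.

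Several genes of the actin cytoskeleton and of calcium-binding S100 proteins were found at far higher levels in DC. Crip1, a LIM-domain protein, was 6729, 7517 and 9907 CPM in DC and 510.3, 144 and 235 CPM in Mb cells (log2 fold change 4.73 ± 0.34, adjusted p = 5.45e-06, and 5.44 without Young A). Tmsb10, thymosin beta, which holds actin monomers, was 5480.5, 5146 and 3836 CPM against 327, 255 and 346 CPM (3.95 ± 0.22, adjusted p = 1.4e-06). Lsp1, an actin-binding protein of leukocytes, was 1432, 1476 and 1238 CPM against 72.3, 47.8 and 24.7 CPM (4.68 ± 0.32, adjusted p = 3.56e-06). For these 3 genes the DC values were tight and every DC value exceeded every Mb value several times over.

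Of 22 actin and motility genes tested 8 were higher and 1 lower in DC (median log2 fold change 0.60), and of 15 S100 proteins, annexins and galectins 9 were higher and 1 lower (1.69). S100a10, which pairs with annexin A2, was 1037, 1229.8 and 1052 CPM in DC and 55.3, 63.8 and 74.1 CPM in Mb cells (log2 fold change 4.12 ± 0.29, adjusted p = 5.19e-06), and its partner Anxa2 was 623, 915 and 886 CPM against 31.9, 95.7 and 86.5 CPM (3.72 ± 0.33, adjusted p = 2.48e-05). Vim, vimentin, and Actg1, gamma actin, were higher at log2 fold changes of 2.36 and 1.11. S100a4 rested on the mice B and C: it was 576, 512 and 633 CPM in DC, 306 CPM in the Mb cells of Young A and 0 and 12.4 CPM in the others (2.58 ± 0.69, adjusted p = 0.0217), with a log2 fold change of 6.19 without Young A and no call without Young C (1.87, adjusted p = 0.0712). Its call was also lost without the mouse as a block and with the larger sum thinned to the smaller. Basp1, a membrane protein that organises actin, was lower in DC, at 283, 236 and 300.4 CPM against 1267, 1244 and 1062 CPM (-2.11 ± 0.24, adjusted p = 0.000153).

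Retnla, the secreted protein RELM-alpha made by alternatively activated macrophages, was 1937, 2420.3 and 8616 CPM in DC and 17, 15.9 and 49.4 CPM in Mb cells (log2 fold change 7.07 ± 0.27, adjusted p = 4.87e-08). Young C stood well above the other DC sums, and every DC value was far above every Mb value. Retnla was higher still in Ma macrophages of the same mice, at 20859 ± 6503 CPM (SD, n = 3, without TMM scaling, as for all Ma values), a description with no test. Other genes higher in DC than in Mb also had a higher mean in Ma than in DC. Ccl6 was 2796 ± 342 CPM in Ma against 757 CPM in DC, and Clec10a 701 ± 255 against 122 CPM. Timd4 was 183 ± 83.3 against 80.4 CPM, and Ifitm6 121 ± 35.7 against 58.9 CPM. Ifitm3 stood at 2864 ± 739 CPM in Ma, above each of its DC values. Crip1 and S100a10 were lower in Ma than in DC but not absent, at 3649 ± 587 against 8051 CPM and 671 ± 61.0 against 1106 CPM. The list of Ma markers summed to 138 to 233 CPM over the DC and to 27.6 to 112 CPM over the Mb cells, and the part of Ma RNA in these results was not tested. Cd209a was found in 29 of 121 Ma cells (24.0%, 17.2 to 32.3), whereas Klrk1, Itgb7 and Lsp1 were at 1.13, 3.40 and 112 CPM in Ma against 102, 135 and 1382 CPM in DC, as means of the 3 mice.

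Antigen presentation genes were called in both directions, as were all genes tested (6.47% higher and 11.5% lower in DC). Cd74, the invariant chain that loads MHC class II, was abundant in both types and lower in DC, at 43180.0, 40427 and 34795 CPM against 93788, 105522 and 76642 CPM (log2 fold change -1.21 ± 0.11, adjusted p = 2.47e-05), and all DC values lay under all Mb values. The class II chains H2-Aa, H2-Ab1 and H2-Eb1 had the same sign but stayed under 2-fold, at log2 fold changes of -0.56, -0.69 and -0.75. H2-Aa, for instance, was 11290.1, 13341 and 11369 CPM in DC and 17883, 17000 and 18012 CPM in Mb cells. Of 13 class II genes tested 2 were higher and 4 lower in DC (median -0.57), and of 15 class I genes 0 were higher and 1 lower (-0.04).

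The class II genes higher in DC, H2-DMb2 and H2-Ob, each encode 1 chain of a chaperone that acts after the invariant chain. No other gene of the list was called higher, so the result covers these chains and not the chaperones as a whole. H2-DMb2, a chain of the peptide exchanger H2-M, was 195, 275 and 161 CPM in DC and 21.3, 63.8 and 0 CPM in Mb cells (log2 fold change 3.10 ± 0.51, adjusted p = 0.00137). Sharing of its reads with the paralog H2-DMb1 was not tested. H2-Ob, a chain of its inhibitor H2-O, was 82.3, 118 and 82.3 CPM against 0, 31.9 and 37.1 CPM (3.01 ± 0.81, adjusted p = 0.0217, 0.0523 by DESeq2, and a log2 fold change of 4.18 without Young C). The proteases that cut the invariant chain and antigens were lower: Ctss, cathepsin S, was 606, 502 and 696 CPM in DC and 4466, 5518 and 4843 CPM in Mb cells (-3.02 ± 0.20, adjusted p = 2.49e-06), and Lgmn, legumain, was 129, 118 and 103 CPM against 829, 1371 and 1198 CPM (-3.22 ± 0.29, adjusted p = 2.47e-05). H2-M2, a non-classical class I gene, was 2.74, 0 and 9.57 CPM in DC and 1138, 1946 and 815 CPM in Mb cells (-7.42 ± 0.48, adjusted p = 2.33e-06, and -8.97 without Young C), and stood at 1.69 ± 2.92 CPM in Ma macrophages.

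Of 10 costimulatory genes tested 1 was higher and 3 lower in DC (median log2 fold change -0.88), and 6 were not called, while over all genes lower calls also outnumbered higher ones (11.5% against 6.47%). Tnfsf9, the ligand of 4-1BB on T cells, was higher, at 167, 374 and 178 CPM against 6.38, 15.9 and 24.7 CPM (4.11 ± 0.50, adjusted p = 0.00024; 3.50 without Young A). Cd72, a lectin best known from B cells, was lower, at 52.1, 88.5 and 23 CPM against 491, 367 and 383 CPM (-3.18 ± 0.40, adjusted p = 0.00027). Cd86 passed narrowly, at 112, 226 and 176 CPM against 219, 399 and 408 CPM (-1.01 ± 0.28, adjusted p = 0.0277), and lost its call whichever mouse was left out (adjusted p of 0.0545, 0.104 and 0.122 without Young A, B and C). Of 13 genes of mature dendritic cells 2 were higher and 1 lower, beside 6.47% and 11.5% over all genes. Ccl17, a chemokine for CCR4 on T cells, was 65.8, 49.2 and 128 CPM in DC with 1 UMI in Mb cells, a ratio of 64.1 (11.2 to 2557).

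The Mb side of the comparison was led by macrophage genes. All 13 macrophage genes with enough UMIs to test, of 20 on the list, were lower in DC (median log2 fold change -3.17). They include Csf1r, Fcgr3, Adgre1 and Ms4a7, by which the study named macrophages, so the count describes the label and is no independent support. Csf1r, the receptor for the macrophage growth factor CSF1, was 32.9, 9.84 and 70.8 CPM in DC and 372, 271 and 259 CPM in Mb cells (-2.92 ± 0.46, and -3.71 without Young C). Adgre1, F4/80, was 19.2, 9.84 and 30.6 CPM against 145, 175 and 173 CPM (-2.86 ± 0.43). Cd14, the co-receptor for lipopolysaccharide, was 197, 551 and 224 CPM against 2603, 4035 and 5226 CPM (-3.74 ± 0.30, adjusted p = 1.09e-05). In each of these genes the highest DC value was under the lowest Mb value. Sirpa, also a cDC2 gene, passed at a log2 fold change of -1.46 and not without Young B (adjusted p = 0.0902) or Young C (0.272). Its call was also lost by DESeq2, with no filter on low counts and without the mouse as a block.

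Complement C1q and apolipoprotein E were abundant in Mb cells and low in DC. C1qa was 129, 19.7 and 113 CPM in DC and 7434, 5438 and 4348 CPM in Mb cells (log2 fold change -5.91 ± 0.35, adjusted p = 1.54e-06), C1qb 181, 128 and 220.0 CPM against 6196, 5167 and 5176 CPM (-4.94 ± 0.22, adjusted p = 1.74e-07), and C1qc 98.7, 19.7 and 101 CPM against 4663, 3588 and 3459 CPM (-5.62 ± 0.32, adjusted p = 1.44e-06). The 3 genes lie next to each other on chromosome 4, from 136880126 to 136898844, and encode the chains of 1 protein. Apoe, which carries cholesterol and lipid, was 244, 167 and 499 CPM in DC and 19410.1, 32149 and 39581 CPM in Mb cells (-6.63 ± 0.26, adjusted p = 4.87e-08). For each of the 4 genes the lowest Mb value was above the highest DC value.

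Free RNA can give UMIs of such abundant genes in cells that do not express them. With each cell thinned to 2000 UMIs, Apoe was found in 12.7% of DC, 100% of Mb cells and 41.0% of fibroblasts, and C1qa in 4.39% of DC, 100% of Mb cells and 1.33% of fibroblasts. For Apoe the share in fibroblasts exceeded that in DC, so fibroblasts give no background for this gene. The source of Apoe in fibroblasts was not tested. Unthinned, C1qa was found in 8.29% of DC and 2.95% of fibroblasts. The low level of C1qa in DC was above that in fibroblasts, at median depths of 4610 and 4411 UMIs, and doublets and shared RNA as its source were not tested. Ma macrophages held C1qa at 4435 ± 1087 CPM and Apoe at 19354 ± 1175 CPM, as means of the 3 mice, and Mb cells at 5740.1 ± 1565 and 30380.1 ± 10201 CPM, a description with no test.

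The lysosomal list had the most genes lower in DC. Of 30 tested 20 were lower and 2 higher (median log2 fold change -1.71). Ctsb, cathepsin B, was 288, 197 and 449.6 CPM in DC and 1246, 3109.7 and 3064 CPM in Mb cells (-2.86 ± 0.31, adjusted p = 0.000113), and Ctsz, cathepsin Z, was 337, 462 and 440.1 CPM against 2458, 2424 and 1729.5 CPM (-2.41 ± 0.23, adjusted p = 4.69e-05). The groups did not overlap for either gene. Cd63 and Cd68, membrane proteins of late endosomes, were lower at -3.76 and -1.96.

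The lysosomal exceptions were modest. Gm2a, the GM2 ganglioside activator, was 823, 866 and 821 CPM in DC and 495, 335 and 222 CPM in Mb cells (log2 fold change 1.27 ± 0.28, adjusted p = 0.00775), and Plbd1, a phospholipase B-like protein, was 376, 354 and 295 CPM against 170.1, 175 and 98.8 CPM (1.22 ± 0.30, adjusted p = 0.0133). Neither overlapped between the types, and both calls depended on single mice: Gm2a missed the threshold without Young B (adjusted p = 0.0554) or Young C (0.061), and Plbd1 without Young A (0.0739), Young B (0.0557) or Young C (0.0582).

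Promoters of genes from these lists are shown for the letters that known regulators of lysosomal and macrophage genes bind. Each window runs from 250 bases before to 50 after a RefSeq start site (GRCm38.p6) and is written 5′ to 3′ along the gene's strand. Capitals mark CACGTG, the E-box letters read by TFEB and its relatives, in Lamp1 (chr8:13158911-13159210, plus strand), Ctsd (chr7:142387778-142388077, minus strand) and Lgmn (chr12:102439043-102439342, minus strand), and GAGGAAGT, an ETS motif of the kind bound by PU.1, read on either strand, in Ctss (chr3:95526536-95526835, plus strand) and C1qc (chr4:136892865-136893164, minus strand).
Lamp1: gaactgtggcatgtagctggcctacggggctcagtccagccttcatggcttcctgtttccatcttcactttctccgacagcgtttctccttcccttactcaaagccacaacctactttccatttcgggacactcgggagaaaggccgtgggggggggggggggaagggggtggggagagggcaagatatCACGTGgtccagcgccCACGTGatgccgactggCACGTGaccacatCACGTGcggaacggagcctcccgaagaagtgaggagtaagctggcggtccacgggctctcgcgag
Ctsd: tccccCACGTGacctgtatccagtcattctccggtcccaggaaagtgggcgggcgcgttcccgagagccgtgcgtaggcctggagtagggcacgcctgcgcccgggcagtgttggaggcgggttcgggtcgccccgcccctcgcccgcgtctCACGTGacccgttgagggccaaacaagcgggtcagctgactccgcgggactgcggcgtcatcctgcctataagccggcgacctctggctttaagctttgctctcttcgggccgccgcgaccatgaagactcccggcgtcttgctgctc
Lgmn: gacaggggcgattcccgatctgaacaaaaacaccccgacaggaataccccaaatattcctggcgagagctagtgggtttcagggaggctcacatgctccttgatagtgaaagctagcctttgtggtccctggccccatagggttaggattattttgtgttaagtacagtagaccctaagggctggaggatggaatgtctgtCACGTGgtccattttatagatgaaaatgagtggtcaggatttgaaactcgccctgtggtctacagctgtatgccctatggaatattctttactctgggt
Ctss: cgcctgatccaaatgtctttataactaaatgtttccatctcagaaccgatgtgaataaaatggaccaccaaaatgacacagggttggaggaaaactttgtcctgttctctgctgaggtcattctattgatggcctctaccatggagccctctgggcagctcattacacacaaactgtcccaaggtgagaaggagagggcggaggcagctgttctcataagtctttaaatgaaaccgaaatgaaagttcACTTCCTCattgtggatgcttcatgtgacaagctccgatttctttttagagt
C1qc: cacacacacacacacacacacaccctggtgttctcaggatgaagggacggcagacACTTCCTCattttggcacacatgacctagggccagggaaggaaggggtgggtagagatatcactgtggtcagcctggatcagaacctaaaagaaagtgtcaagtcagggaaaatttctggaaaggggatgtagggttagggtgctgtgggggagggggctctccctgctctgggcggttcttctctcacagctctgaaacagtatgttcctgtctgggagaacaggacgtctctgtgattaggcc

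The E-box sits at -61, -45, -28 and -15 from the Lamp1 start site, at -245 and -98 in Ctsd and at -49 in this window of Lgmn, and the ETS letters at -2 in Ctss and -195 in C1qc, by the first base of each match. Of the lysosome list 32 genes matched a RefSeq window by symbol. CACGTG was in 12 of them (37.5%), TGANTCA (AP-1) in 3 (9.38%), TGCTGAC (a MAF motif) in 2 (6.25%), GAGGAAGT in 3 (9.38%) and the NF-kB motif in 11 (34.4%), with both strands searched. Over all 27025 genes with windows the shares were 8.09%, 8.97%, 5.28%, 3.69% and 22.9%. Of the 16 matched lysosomal genes that were lower in DC, 5 held CACGTG (31.2%), namely Ctsa, Ctsd, Ctsl, Lamp1 and Lgmn. This share was not above the 37.5% of the whole list. Of the same 16 genes 1 held the AP-1 letters (6.25%), 1 the MAF letters (6.25%), 3 GAGGAAGT (18.8%) and 6 the NF-kB motif (37.5%). A link between any motif and the difference was not tested. The windows printed were picked because they hold the letters. The C1qb window has no match to GAGGAAGT, and another RefSeq start site of Lgmn and of Ctsa has a window with no CACGTG. A match is a run of letters and was not tested as a bound site.

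Chemokines split by gene. Of 15 tested 3 were higher and 6 lower in DC (median log2 fold change -0.81). Cxcl2, which draws neutrophils, was 540.4, 767 and 1653 CPM in DC and 6705, 14576 and 9735 CPM in Mb cells (-3.45 ± 0.28, adjusted p = 1.1e-05), without overlap, and its neighbour on chromosome 5, Cxcl1, was 16.5, 9.84 and 283 CPM against 887, 2089 and 1408 CPM (-4.28 ± 0.66, adjusted p = 0.00091, between -3.52 and -6.27 with 1 mouse left out). Cxcl16, a membrane-bound ligand of CXCR6, was 351, 403 and 459 CPM against 1193, 1196 and 1322 CPM (-1.62 ± 0.22, adjusted p = 0.000435).

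A run of CC chemokine genes on chromosome 11 held both directions. Ccl9 and Ccl6, ligands of CCR1, at 83572917 to 83593087, were higher in DC. Ccl6 was 549, 689 and 1033 CPM in DC and 93.6, 95.7 and 98.8 CPM in Mb cells (log2 fold change 2.87 ± 0.30, adjusted p = 8.93e-05), and Ccl9 532, 551 and 794 CPM against 111, 271 and 124 CPM (2.01 ± 0.34, adjusted p = 0.00159). Ccl3 and Ccl4, inflammatory chemokines, at 83647843 to 83664683, were lower. Ccl4 was 1561, 4113 and 1066 CPM in DC and 1899, 16521 and 10389 CPM in Mb cells, so the DC of Young B exceeded the Mb cells of Young A (-1.87 ± 0.43, adjusted p = 0.00977). Within each mouse Ccl4 was lower in DC, and without the mouse as a block the adjusted p was 0.0661. Its log2 fold change was -2.73 without Young A and -1.14 without Young C. Ccl3 was 277, 708 and 68.9 CPM against 668, 7591 and 3360.2 CPM (-3.36 ± 0.63, adjusted p = 0.00281, between -2.33 without Young C and -4.51 without Young A). The annotated spans of Ccl3 and Ccl4 overlap.

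Cytokines went 1 way among those that passed: of 11 tested 8 were lower and 0 higher in DC (median log2 fold change -2.69). Il1b, the inflammatory cytokine interleukin-1 beta, was 757, 1948 and 1081 CPM in DC and 5109.8, 4130.3 and 3484 CPM in Mb cells (-1.85 ± 0.28, adjusted p = 0.000765). Tnf was 57.6, 157 and 109 CPM against 199.9, 1946 and 877 CPM (-2.81 ± 0.35, adjusted p = 0.00027). Il10, which damps inflammation, was 8.23, 0 and 7.65 CPM against 332, 478 and 556 CPM (-5.95 ± 0.47, adjusted p = 1.09e-05), and Il1rn, the receptor antagonist that blocks interleukin-1, was 27.4, 157 and 82.3 CPM against 293, 399 and 717 CPM (-2.69 ± 0.41, adjusted p = 0.00081). Both the inflammatory genes and their antagonists therefore had higher values in Mb cells, with no overlap for any of these 4 genes. Il12b, a subunit of interleukin-12, did not pass, at 8.23, 0 and 138 CPM against 534, 63.8 and 12.4 CPM (adjusted p = 0.3), with Young A and Young C in opposite directions.

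Among receptors for complement, chemokines and microbes more were called lower than higher in DC, as over all genes (11.5% against 6.47%). Of 7 chemoattractant receptors tested 3 were lower and 1, Ccr2, higher, of 8 pattern recognition receptors 4 were lower and 0 higher, and of 9 Fc receptors and adaptors 4 were lower and 1 higher. The 4 Fc genes lower in DC include Fcgr3, by which the study named macrophages. C5ar1, the receptor for C5a, was 8.23, 0 and 23 CPM in DC and 338, 255 and 309 CPM in Mb cells (log2 fold change -4.55 ± 0.50, adjusted p = 0.000129, and -5.57 without Young C). Tlr2, which senses bacterial lipoproteins, was 21.9, 49.2 and 40.2 CPM against 440.2, 622 and 729 CPM (-4.09 ± 0.33, adjusted p = 1.09e-05). Fcgr1, the high-affinity IgG receptor CD64, had 1 UMI in DC and 80.8, 144 and 98.8 CPM in Mb cells, a ratio of Mb to DC of 82.4 (14.2 to 3313). None of these values overlapped.

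The Fc receptor that was higher in DC is the inhibitory one. Fcgr2b was 134, 128 and 109 CPM in DC and 55.3, 47.8 and 37.1 CPM in Mb cells (log2 fold change 1.37 ± 0.39, adjusted p = 0.0292), while its neighbours on chromosome 1, the activating Fcgr3 (-1.94 ± 0.33, adjusted p = 0.00159) and Fcgr4 (-4.00 ± 0.66, adjusted p = 0.00141), were lower. The Fcgr2b groups did not overlap, but its call was lost without Young A, B or C (adjusted p of 0.127, 0.0786 and 0.112) and by DESeq2. Fcgr4 moved between -3.08 without Young C and -5.48 without Young A. Lilra5, an immunoglobulin-like receptor, and Gpr84, a receptor for fatty acids, had 0 UMIs in DC and were at least 37.0-fold and 24.5-fold lower there.

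**Figure D4:**
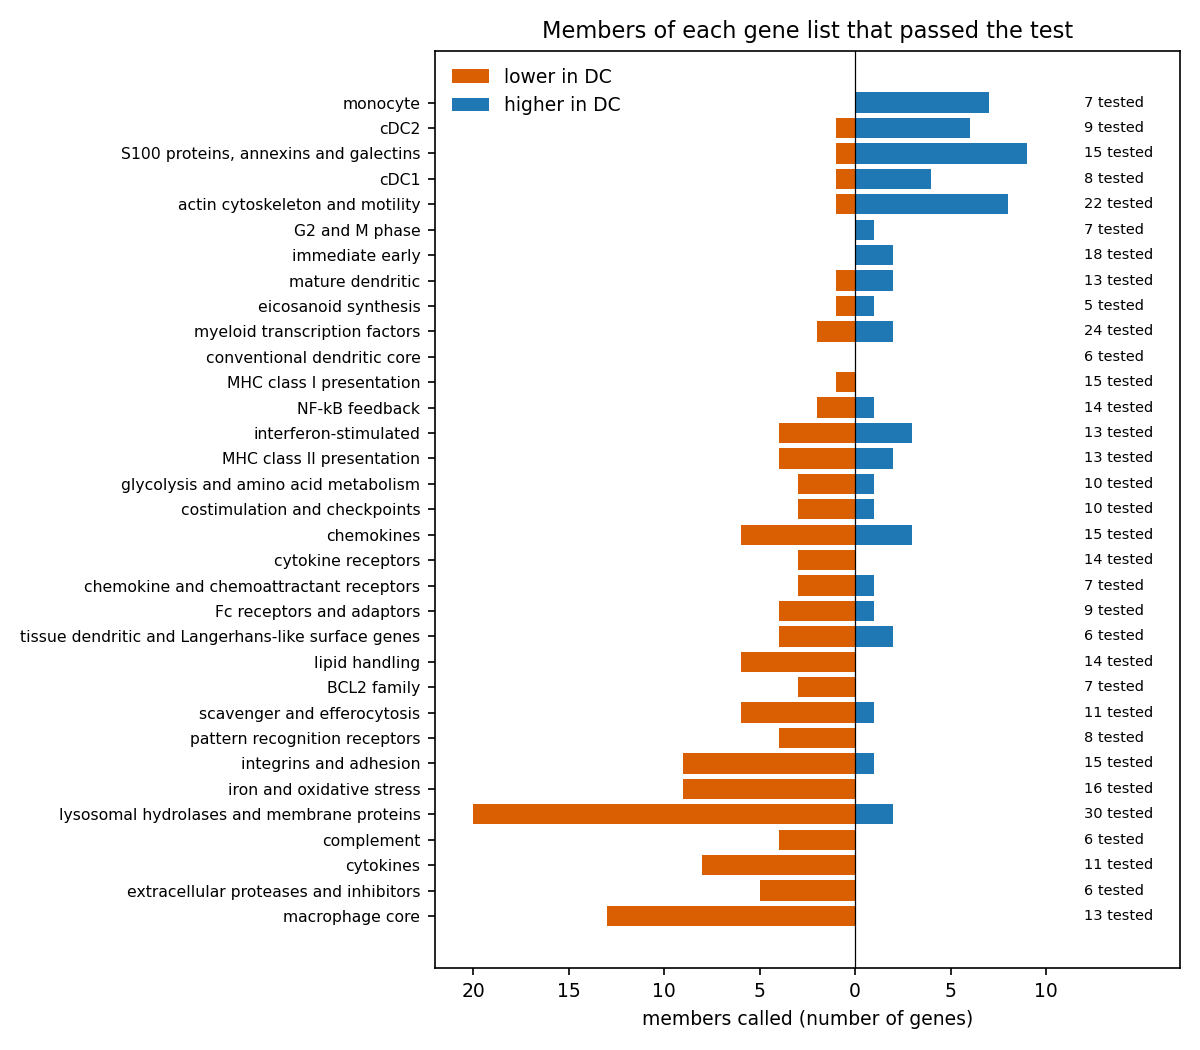
Number of genes of each list called higher (to the right of 0) or lower (to the left) in DC than in Mb cells of the young mice, for lists with at least 5 genes tested. The macrophage list has 13 of 13 tested genes lower, the lysosome list 20 of 30 lower and 2 higher, the monocyte list 7 of 7 higher, and the list of S100 proteins, annexins and galectins 9 of 15 higher.

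Matrix-degrading and cell-fusion genes were on the Mb side. Of 6 extracellular proteases and inhibitors tested 5 were lower in DC and 0 higher (median log2 fold change -3.06). The 5 include Mmp12 and Mmp13, by which the study named Mb, so the count in part describes the label. Mmp12, macrophage elastase, was 27.4, 0 and 99.5 CPM in DC and 476, 1276 and 506 CPM in Mb cells (-3.81 ± 0.61, adjusted p = 0.00116, between -3.13 and -5.04 with 1 mouse left out), and its neighbour Mmp13, a collagenase, had 1 UMI in DC and 176, 734 and 235 CPM in Mb cells, a ratio of Mb to DC of 222 (39.2 to 8816). All 3 tested genes of cell fusion and osteoclasts were lower in DC. Acp5, tartrate-resistant acid phosphatase, was 49.4, 68.9 and 34.4 CPM in DC and 1125, 1579 and 1223 CPM in Mb cells (-4.73 ± 0.29, adjusted p = 1.88e-06). Dcstamp, a membrane protein needed for the fusion of osteoclasts, was 24.7, 39.4 and 91.8 CPM against 453, 415 and 371 CPM (-3.07 ± 0.44, adjusted p = 0.000577, and -3.89 without Young C), and Ocstamp, with the same role, was 19.2, 9.84 and 11.5 CPM against 245, 415 and 185 CPM (-4.04 ± 0.43, adjusted p = 9.64e-05). In Ma macrophages Dcstamp was at 1.13 ± 1.97 CPM and Ocstamp had none, a description with no test.

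Of 15 integrins and adhesion genes tested 9 were lower in DC and 1 higher (median log2 fold change -1.34). Itgb7, which with alpha-4 or alpha-E chains binds gut and epithelial ligands, was higher, at 167, 138 and 99.5 CPM against 8.51, 0 and 0 CPM (4.58 ± 0.61, adjusted p = 0.00039). Itgb5, whose pair with alpha-V takes up apoptotic cells, was 8.23, 0 and 1.91 CPM against 336, 303 and 198 CPM (-5.88 ± 0.53, adjusted p = 2.48e-05, and -6.69 without Young A). Vcam1, a ligand of alpha-4 integrins, was 2.74, 0 and 9.57 CPM against 417, 1324 and 408 CPM (-6.39 ± 0.51, adjusted p = 1.09e-05, and -7.86 without Young C). Timd4, a phosphatidylserine receptor for dying cells, was higher in DC, with 54.9, 98.4 and 88.0 CPM in DC and 1 UMI in Mb cells, a ratio of 50.7 (8.84 to 2029.9). Of 11 scavenger and efferocytosis genes tested 6 were lower and 1, Timd4, higher, and 4 were not called.

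Iron and lipid genes were lower in DC where they passed. Of 16 iron and oxidative stress genes tested 9 were lower and 0 higher (median log2 fold change -1.27). Fth1, ferritin heavy chain, was 5930.3, 6818 and 7343 CPM in DC and 24924, 24048 and 23620.2 CPM in Mb cells (-1.86 ± 0.14, adjusted p = 5.67e-06), and Ftl1, the light chain, 7510.3, 7290.4 and 11321 CPM against 16639, 25356 and 25201 CPM (-1.36 ± 0.16, adjusted p = 0.000155). Of 14 lipid genes 6 were lower and 0 higher. Abca1, which exports cholesterol to apolipoproteins, was 5.49, 0 and 11.5 CPM against 65.9, 144 and 148 CPM (-3.84 ± 0.55, adjusted p = 0.000585).

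Of 5 eicosanoid synthesis genes tested 1 was higher and 1 lower in DC. Alox5ap, which feeds arachidonic acid to the leukotriene pathway, was 793, 984 and 783 CPM in DC and 97.8, 63.8 and 24.7 CPM in Mb cells (log2 fold change 3.61 ± 0.36, adjusted p = 6.11e-05, and 4.28 without Young A). Hpgds, the synthase of prostaglandin D2, was 13.7, 0 and 0 CPM against 129.7, 367 and 222 CPM (-5.08 ± 0.75, adjusted p = 0.000715, between -4.09 without Young C and -8.63 without Young A). The DC and Mb values overlapped for neither.

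Survival and interferon genes gave smaller sets. Bcl2a1b, Bcl2a1a and Bcl2a1d, copies of an anti-apoptotic BCL2 relative, were lower in DC, Bcl2a1b at 228, 384 and 465 CPM against 2396, 3668 and 3657 CPM (log2 fold change -3.20 ± 0.20, adjusted p = 2.04e-06). These copies are near-identical, so how reads were split among them is uncertain. Of 13 interferon-stimulated genes 3 were higher and 4 lower in DC, beside 6.47% and 11.5% over all genes. Ifitm3 and Ifitm2, membrane proteins that block viral entry and close paralogs, were higher, Ifitm3 at 1731, 2391 and 1272 CPM against 259, 191 and 309 CPM (2.75 ± 0.29, adjusted p = 9.68e-05). Lyz1 was 139.9, 600.2 and 1265 CPM in DC and 10.6, 0 and 0 CPM in Mb cells (5.33 ± 0.64, adjusted p = 0.000222, and 4.42 without Young C), and its reads may be shared with the paralog Lyz2 beside it on chromosome 10. Its 5 UMIs in Mb cells were all from Young A, without which the fitted value was 10.54, a size set by the 0 values.

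Of 24 myeloid transcription factors 2 were higher in DC and 2 lower, a share near the 18% called of all genes tested. Klf2, a factor of quiescent leukocytes, was 496, 1525 and 492 CPM in DC and 44.7, 255 and 321 CPM in Mb cells (log2 fold change 2.21 ± 0.47, adjusted p = 0.00575, and 1.46 without Young A or 3.05 without Young C). The Klf2 call was lost without the mouse as a block and with the aged mice added. Of 2 S-phase genes 0 passed (edgeR), and of 7 G2 and M genes 1 was higher, beside 6.47% higher over all genes. Hmgb2, a chromatin protein, was 584, 1161 and 373 CPM against 315, 159 and 86.5 CPM (1.78 ± 0.37, adjusted p = 0.00558, and 2.45 without Young A), and missed the threshold without Young B (0.0561). With G1 cells alone, 1038 genes could be tested, and 69 were higher and 186 lower in DC.

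Genes of other cell types were measured in the same sums. Epithelial markers summed to 600.2 to 1391 CPM over the DC of the mice and 1310 to 4449 CPM over the Mb cells, with 3 of 7 tested lower in DC. Krt18, a luminal keratin, was 239, 78.7 and 258 CPM in DC and 234, 877 and 1161 CPM in Mb cells (log2 fold change -1.68 ± 0.51, adjusted p = 0.0378, and -2.67 without Young A), and its call was lost without Young B (-1.07, adjusted p = 0.19) or Young C (0.202). The Krt18 call was also lost without doublets, without the mouse as a block and with the larger sum thinned to the smaller. Fibroblast markers summed to 68.9 to 1435 CPM over DC and 95.7 to 766 CPM over Mb cells. The part of epithelial and fibroblast RNA in the comparison was not tested. Of 11 granulocyte and mast cell genes 8 had no UMI and 0 could be tested.

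The aged mice offered a description in other animals. Aged A held 14 DC and 9 Mb cells and Aged B 5 and 6, and Aged C and D held 1 DC each. Values for aged mice are CPM of the sums without further scaling. Of the genes higher in DC in young mice with at least 3 UMIs in the aged sums, 110 of 128 were also higher in DC of Aged A and 93 of 101 in Aged B. Of those lower in DC, 248 of 272 were lower in Aged A and 175 of 211 in Aged B. Over all tested genes with that many UMIs, DC were higher for 50.5% of 2287 in Aged A and 62.2% of 1702 in Aged B. A fit of these aged mice alone tested 661 genes and called 124 (18.8%), 30 higher and 94 lower in DC, with 37 by DESeq2 and 52 without the mouse as a block. In the edgeR fit of the aged mice the spread was drawn wholly from the genes together, with infinite degrees of freedom. Its adjusted p therefore did not weigh a gene's own spread over mice, and the share called is no measure of replication.

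Several of the leading differences had the same sign. Crip1 was 6686 and 7068 CPM in the DC of Aged A and B and 852 and 66.8 CPM in their Mb cells, and Lsp1 was 1363 and 1282 CPM against 13.1 and 0 CPM. Apoe was 347 and 0 CPM in DC and 61572 and 21770.3 CPM in Mb cells, and C1qa was 0 in both DC sums against 3838 and 2337 CPM. Klrk1 was 51.4 and 281 CPM in DC with 0 UMIs in Mb cells. Cd209a and Retnla, both high in young DC, had 0 UMIs among the 109745 UMIs of these aged DC, which allows up to 27.3 CPM, against 224 to 639.5 CPM and 1937 to 8616 CPM in the DC of the young mice. With 14 and 5 aged DC this contrast had no test, and age cannot be told apart from how each library was made.

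**Figure D5:**
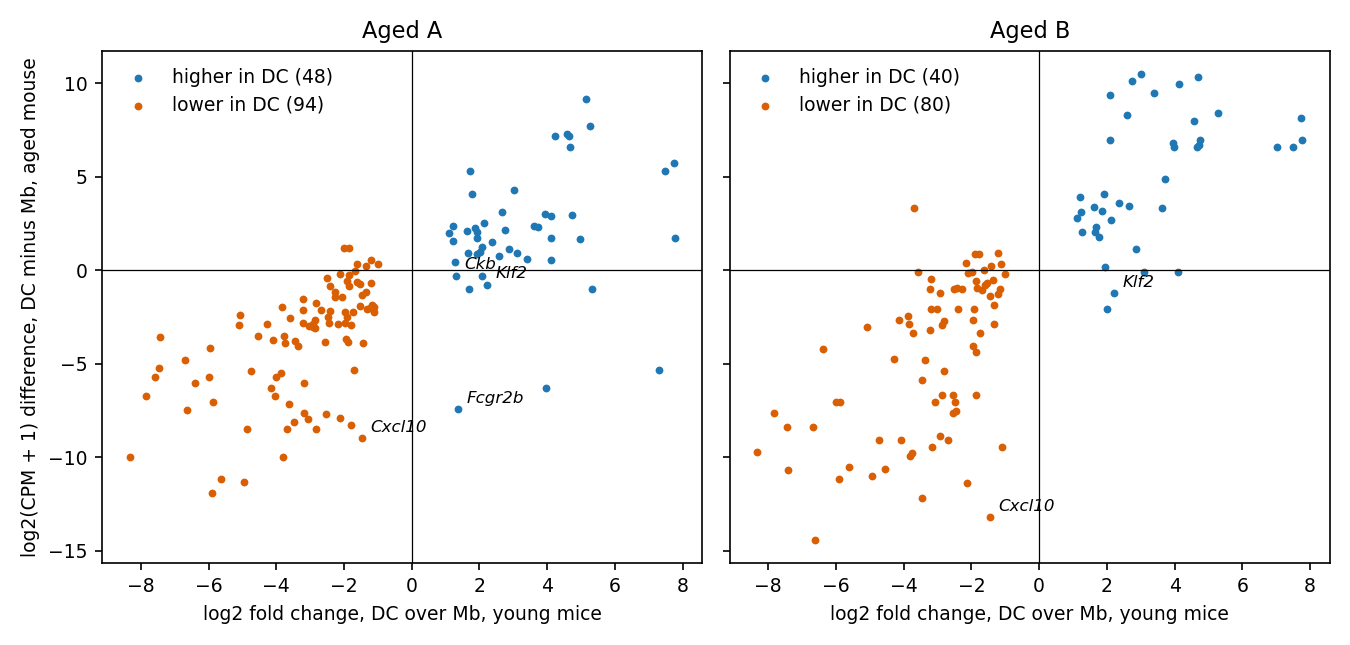
Log2 fold change in the young mice (horizontal axis) against the log2 difference of DC and Mb cells, with 1 CPM added, in Aged A and Aged B (vertical axis), for named called genes with at least 3 UMIs in the aged sums. Most points share their sign with the young mice, and Klf2 and Cxcl10 are named in both panels and Fcgr2b and Ckb in that of Aged A.

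Whether the difference between DC and Mb cells itself changed with age was tested with a type-by-age term over the young mice and Aged A and B. Of 1394 genes 1 was called (0.0717%), Cxcl10, a chemokine induced by interferon gamma, with 100 genes at an unadjusted p under 0.05. Cxcl10 was 43.9, 128 and 113 CPM in young DC and 104, 239 and 457 CPM in young Mb cells, and in Aged A and B it had 0 UMIs in DC and 511 and 9416 CPM in Mb cells. The fitted term was -11.21 on the log2 scale (edgeR, adjusted p = 0.0199), a size set by the 0 values, and the call was lost without Young A, B or C (adjusted p of 0.199, 0.0927 and 0.0939).

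DC made up 45.5%, 60% and 85.5% of the DC and Mb cells of Young A, B and C, and 60.9%, 45.5%, 20% and 25% of those of Aged A, B, C and D. The means were 63.6% ± 20.3 (SD, n = 3) and 37.8% ± 18.9 (n = 4), a difference of 25.8 percentage points that did not pass (exact permutation test, 2-sided, p = 0.2), with groups that overlapped. As a share of all cells DC were 3.34%, 1.90% and 3.70% in the young mice and 0.85%, 0.182%, 0.073% and 0.065% in the aged mice, without overlap (exact permutation test, p = 0.0286, the smallest that 3 against 4 mice allow). Mb cells were 4.01%, 1.27% and 0.628% of all cells in the young and 0.546%, 0.218%, 0.292% and 0.194% in the aged mice, also without overlap. The paper reports that epithelial cells made up a larger part of all cells in aged mice. How far this sets the shares of DC and Mb cells among all cells was not tested.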

How the data were processed

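Single cells of mammary glands from 3 young and 4 aged mice were captured with 10x 3′ v2 chemistry. The authors aligned the reads to mm10 with Cell Ranger 2.0, according to the submitters' processing notes, filtered the cells and deposited raw UMI counts, with no normalization, for 27998 genes in 13684 cells, together with the mouse, cell type and phase of each cell. All deposited values were whole numbers.

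UMIs were summed per mouse and type where a mouse held at least 3 cells of it. Genes with low sums were dropped by filterByExpr, which keeps a gene with enough UMIs in 1 type alone. TMM factors were computed. The edgeR 4.0.16 quasi-likelihood test (R 4.3.3) was run with the mouse as a block because both sums came from the same animal. The paired fit thus follows from the design. Calls needed a difference of at least 2-fold and an adjusted p (Benjamini-Hochberg) under 0.05. For 0 UMIs a bound was set at 3 UMIs over the sums of the type, and for 1 to 3 UMIs a ratio with its 95% counting interval is given. The 3 mice are separate animals. Shares and per-cell medians were compared with exact permutation tests computed with numpy 2.4.6. Shares of cells carry 95% Wilson intervals from scipy 1.17.1, with cells thinned to 2000 UMIs where this is stated. Doublets were called with Scrublet in scanpy 1.11.5 at an expected rate of 0.06 and kept, at 0.533% of all cells. The fits were tested on simulated data. Figures were drawn with matplotlib 3.10.9 from Python 3.11.15. Promoter windows were RefSeq sequences on GRCm38.p6, matched by symbol.

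Named were the study's marker genes, in each direction the 12 called genes of largest fold among those at least 2-fold in each mouse and at a mean of at least 50 CPM in the higher type, the 6 of largest difference in CPM, called members of each list (at most 6 per direction by level) and genes called by the type-by-age term, 156 in all. Of the genes higher in DC 15 had under 3 UMIs in the Mb sums, and of those lower 6 had under 3 in the DC sums. The cells, lists and tests were chosen with earlier results of these data known. Alternatives were DESeq2 1.42.0, RLE factors, other filters and fold minimums, no ribosomal protein or mitochondrial genes, no replicate block, each mouse left out, the aged mice added, thinned sums, no doublets, G1 cells, all cells as the denominator and, added after seeing the data, cells with a barcode of their own. Tissue staining and flow cytometry were not analysed here. Some named genes are not reported here.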

Additional observations from a re-analysis of the deposited data

Results flagged for a closer look

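Of the differences between young and aged mice, that of Cxcl10 passed a test of the difference itself. The term was -11.21 on the log2 scale (edgeR quasi-likelihood test, adjusted p = 0.0199) and rests on 0 UMIs in the DC of Aged A and B against 39 and 282 UMIs in their Mb cells. It was -8.16 by DESeq2 (adjusted p = 0.00261), and with no replicate block the adjusted p was 0.336.

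The difference between DC and Mb cells had opposite signs in young and aged mice for Klf2, Fcgr2b and Ckb, each higher in DC in all 3 young mice and lower in DC in Aged A and Aged B. Klf2 had a log2 fold change of 2.21 in young mice, and stood at 283 and 344 CPM in the aged DC and 485 and 801 CPM in the aged Mb cells. Fcgr2b, at 1.37 in young mice, had 0 UMIs in the aged DC and 13 and 2 UMIs in the aged Mb cells. Ckb, creatine kinase B, at 1.30 in young mice and 0.61 without Young A (adjusted p = 0.276), and not called by DESeq2, with G1 cells or with the aged mice added, stood at 129 and 31.3 CPM in the aged DC and 157 and 33.4 CPM in the aged Mb cells, 10 and 1 UMIs against 12 and 1. The test of the difference did not pass for any of these genes, with adjusted p = 0.332 for Klf2, 0.209 for Fcgr2b and 0.704 for Ckb (edgeR).

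DC were 0.85% of all cells in Aged A, far from the 0.065% to 0.182% of the other aged mice. Chance alone marks about 1 in 20 groups of this size as holding such a sample.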

How the results depend on the processing

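All 437 calls of the young mice kept their sign under each of the 13 alternatives that could test them, and of the 154 named genes that were called 114 kept their call under all that gave a value. The counts of genes higher and lower in DC, 157 and 280, were 277 and 273 with no filter on low counts (13352 genes tested, 50.4% of calls higher against 35.9% with the filter), 57 and 145 with the aged mice added (880 tested), 74 and 172 with the larger sum of each mouse thinned to the smaller (1057 tested), 69 and 186 with G1 cells, 112 and 214 by DESeq2, and 189 and 295 at a minimum of 1.5-fold. With no replicate block, 142 genes were higher and 245 lower, 387 in all, which is within 1.5 times of the 437, and 17 named genes lost their call. Leaving out 1 young mouse gave 91 to 162 genes higher and 204 to 265 lower, the fewest without Young A, and 30 named genes lost their call without at least 1 mouse. With cells of their own barcode alone, 155 and 280 genes were called.

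The fit of the aged mice called 124 genes, 37 by DESeq2 and 52 with no replicate block. The type-by-age term called 1 gene, 3 by DESeq2, 19 with no filter, 0 with no replicate block, and 0 to 0 with 1 young mouse left out. The share of DC differed by 25.8 percentage points with DC and Mb cells as the denominator, by 14.9 to 34.9 with 1 mouse left out, and by 2.69 of all cells (exact permutation test, p = 0.0286). Per-cell medians differed by -531 to -112.5 UMIs, -73.75 to -11.5 genes and -0.954 to -0.606 mitochondrial percentage points with 1 young mouse left out. The log2 fold change of Lyz2, 0.11, was 0.63 without Young A and turned to -0.0045 without Young B, -0.38 without Young C and -0.81 with the aged mice, and the cause was not tested. Depth limits the comparison in Young B and in the aged mice.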

Other observations

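H2-Eb1, the beta chain of the MHC class II molecule I-E, was looked at after its values were seen. Over DC and Mb cells together it stood at 11745, 9394 and 8878 CPM in Young A, B and C, and at 221, 291, 325 and 328 CPM in Aged A, B, C and D, which is 34, 18, 10 and 10 UMIs. Its neighbours in function did not separate the ages in this way: H2-Aa was 14049, 12942 and 11528 CPM in the young and 15879, 15229, 18427 and 18708 CPM in the aged mice, and H2-Ab1 was 16464, 13295 and 11894 CPM against 11018, 10206, 19792 and 12221 CPM. The mice were of mixed background, the genotype of each was not given in the sources used here, and age, background and library processing cannot be told apart.

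Ccr7 and Il12b were higher in the Mb cells of Young A than in those of the other young mice. Ccr7 was 266 CPM there against 15.9 and 37.1 CPM in the Mb cells of Young B and C, and Il12b was 534 CPM against 63.8 and 12.4 CPM. Both genes were chosen for naming after their values were seen, and the list of mature dendritic genes as a whole summed to 2645 to 2950 CPM over the Mb cells of the 3 mice.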
